A study of Mus musculus with 18 samples.

Results

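The 7 genes described here were selected on the difference between *Ubqln1*-/- and WT splenic B cells in these same RNASeq libraries, out of 28096 genes counted. They are *Vill*, *Trim46*, *Setbp1*, *Tns3*, *Arhgap31*, *Car2* and the Entrez gene GeneID:100504785, for which the gene tables used here gave no symbol and no position. All 7 passed the filter on low counts that left 14161 genes for testing. Because the genotype difference chose the members, it is given below as a description with no test. The tests concern contrasts or genes that the choice did not use, though in the same libraries.

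B cells were isolated with a magnetic bead kit from spleens of WT mice and of *Ubqln1*-/- mice of the C57BL/6 N strain, at least 8 weeks old. The *Ubqln1*-/- mice came from C57BL/6 embryonic stem cells in which exon 2 of *Ubqln1* had been floxed and then deleted by transient Cre expression. Cells of each genotype were left resting or were stimulated for 4 hr with F(ab)2 fragments against IgM (anti-IgM) at 10 μg/mL, which crosslink the B-cell receptor, or with LPS of *E. coli* K12 at 20 μg/mL, which acts through TLR4. There were 3 libraries for each of the 6 groups, 18 in all, and each came from 3 pooled wells.

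The members do not form a pathway. Vill is a relative of villin and gelsolin, which bind, cap and sever actin filaments. Tns3 is a tensin that links integrins to the actin cytoskeleton, and Arhgap31 (CdGAP) is a GTPase-activating protein that turns off Cdc42 and Rac1, the small GTPases that drive actin protrusions. Trim46 is a tripartite motif protein best known for bundling microtubules in neurons. Setbp1 binds SET, an inhibitor of the phosphatase PP2A, and Car2 is a cytosolic carbonic anhydrase that interconverts CO2 and bicarbonate. Ubqln1, the gene that was deleted, is a ubiquilin, a shuttle that carries ubiquitinated clients to the proteasome. Its clients include mitochondrial membrane proteins mislocalized in the cytosol.

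The library labels were first checked on *Ubqln1* itself (Entrez gene 56085, GRCm38 chr13:58176156-58215653). CPM stands for a gene's count after every library is scaled to the same total, with TMM factors. Resting WT libraries had 237, 236 and 230 CPM of *Ubqln1* and resting *Ubqln1*-/- libraries had 92.7, 91.4 and 106 CPM. In *Ubqln1*-/- cells the mean was 41.4% of WT at rest, 37.3% with anti-IgM and 36.9% with LPS, and the groups did not overlap in any condition. The log2 difference was -1.27 at rest (SE 0.07, edgeR adjusted p = 6.68e-08), and the exons left in place can still give reads.

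Total counts of the libraries lay between 15368941 and 41072854, and TMM factors between 0.958 and 1.04. The 5 B cell markers read here (*Ms4a1*, *Cd79a*, *Cd79b*, *Cd22* and *Pax5*) summed to 1622 to 6192 CPM, and among them *Cd79b*, a signalling chain of the B-cell receptor, was highest at 719 to 2355 CPM. T cell markers summed to 0.499 to 1.17 CPM, NK cell markers to 0 to 0.598 CPM and neutrophil markers to 0.0333 to 0.901 CPM, and no marker was at 0 in all libraries. The sums were 11.6 to 50.6 CPM for macrophages and monocytes, 13.0 to 70.6 CPM for dendritic cells, 0.249 to 4.29 CPM for erythroid cells, 4.28 to 8.07 CPM for platelets and 29.8 to 268 CPM for stroma and endothelium, the last nearly all *Pecam1*, which B cells also express. Marginal zone B cell markers summed to 520 to 1062 CPM, follicular to 516 to 2767 CPM and B1 cell markers to 56.4 to 138 CPM. The follicular sum was apart between genotypes at rest, at 1570 to 1862 CPM in WT and 1870 to 1902 CPM in *Ubqln1*-/-, and overlapped with anti-IgM and with LPS. The plasma cell list (*Sdc1*, *Jchain*, *Prdm1* and *Xbp1*) was apart in all 3 conditions, since its sum was lower in every *Ubqln1*-/- library than in any WT library of the same condition. At rest it was 354 to 585 CPM in WT and 284 to 312 CPM in *Ubqln1*-/-. With anti-IgM it was 335 to 544 CPM in WT and 279 to 298 CPM in *Ubqln1*-/-, and with LPS 220 to 420 CPM in WT and 185 to 199 CPM in *Ubqln1*-/-. Its leading gene *Jchain*, which encodes the joining chain of secreted IgM, had 158, 190 and 390.0 CPM in resting WT and 116, 143 and 133 CPM in resting *Ubqln1*-/- (log2 difference -0.91, SE 0.37, edgeR adjusted p = 1.00). The part of these 2 lists in the members' genotype differences was not tested. Of 38 tested markers edgeR called 0 between genotypes in each condition, with an unadjusted p under 0.05 for 4 at rest, 4 with anti-IgM and 1 with LPS. limma called 0 in each condition, and DESeq2 called 0 at rest, 1 (*Prdm1*) with anti-IgM and 0 with LPS. In bulk libraries fewer cells of a type and less RNA per cell cannot be told apart.

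Promoter windows in RefSeq (GRCm38.p6), from 250 bases before to 50 bases after a transcription start, were found for 3 of the 7 members. They are shown for *Vill* and *Trim46*, which were higher in *Ubqln1*-/- cells, and for *Tns3*, which was lower, so that the sequences at the starts of genes that moved in opposite directions can be read side by side. Capitals mark matches, on either strand, to 5 short motifs, namely the AP-1 site written TGANTCA, the E-box written CACGTG, the TATA box written TATAAA, the NF-Y site written CCAAT and the GC box written GGGCGG.
Vill, chr9:119052528-119052827, plus strand: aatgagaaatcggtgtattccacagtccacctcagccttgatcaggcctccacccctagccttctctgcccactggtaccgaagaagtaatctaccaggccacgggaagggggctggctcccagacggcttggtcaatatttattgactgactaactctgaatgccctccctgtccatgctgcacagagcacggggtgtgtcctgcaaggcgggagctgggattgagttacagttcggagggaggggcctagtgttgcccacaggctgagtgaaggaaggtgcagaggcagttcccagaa
Trim46, chr3:89245848-89246147, minus strand, the furthest upstream of its 3 windows: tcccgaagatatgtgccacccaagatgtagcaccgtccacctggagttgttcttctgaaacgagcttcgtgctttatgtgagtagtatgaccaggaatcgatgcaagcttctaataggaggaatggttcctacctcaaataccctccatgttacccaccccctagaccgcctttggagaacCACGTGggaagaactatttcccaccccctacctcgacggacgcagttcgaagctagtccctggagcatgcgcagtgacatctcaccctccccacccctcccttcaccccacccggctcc
Tns3, chr11:8664486-8664785, minus strand: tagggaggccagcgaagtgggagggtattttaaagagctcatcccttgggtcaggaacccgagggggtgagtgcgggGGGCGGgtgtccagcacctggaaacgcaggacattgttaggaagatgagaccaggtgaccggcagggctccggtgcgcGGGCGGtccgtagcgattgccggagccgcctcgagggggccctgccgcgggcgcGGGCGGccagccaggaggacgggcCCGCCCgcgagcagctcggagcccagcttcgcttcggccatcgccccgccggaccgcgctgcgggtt

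The *Vill* window held none of the 5 motifs. The *Trim46* window held 1 CACGTG, at -69 from the start, and CACGTG occurs in 7.15% of the 32851 windows. This window lies inside the gene, whose 5′ end is at 89246358. The neighbouring gene *Krtcap2* begins within it at 89245904, and the CACGTG lies in the stretch that both genes share. The *Tns3* window held 4 matches to GGGCGG, which 35.7% of windows hold. Most of this window, with the 4 matches, also lies inside its gene, whose 5′ end is at 8664758. TGANTCA occurs in 7.81% of windows, TATAAA in 13.6% and CCAAT in 37.4%, and none of the 3 members had them. The GC content was 56.3% for *Vill*, 54.7% for *Trim46* and 70.7% for *Tns3*, beside a median of 52.7% over all windows. These matches describe letters and not binding.

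*Vill* (Entrez gene 22351, chr9:119052729-119071525, plus strand, protein coding) was higher in *Ubqln1*-/- cells by a similar ratio in the 3 conditions. Its counts in resting WT libraries were 64, 93 and 47, or 4.09, 3.62 and 2.34 CPM, and in resting *Ubqln1*-/- libraries 412, 308 and 306, or 19.5, 13.8 and 14.5 CPM. With anti-IgM, WT libraries had 2.11, 1.59 and 1.27 CPM and *Ubqln1*-/- libraries 10.6, 8.17 and 8.81 CPM. With LPS, WT libraries had 2.20, 2.21 and 1.36 CPM and *Ubqln1*-/- libraries 11.1, 8.46 and 10.2 CPM. The lowest *Ubqln1*-/- library was above the highest WT library in each condition. The ratio of means was 4.76 at rest, 5.55 with anti-IgM and 5.14 with LPS, and library by library of the same replicate number it lay between 3.80 and 7.47. By the size of its log2 difference *Vill* ranked 4 of 14161 genes at rest, 4 with anti-IgM and 5 with LPS. GeneID:100504785 ranked 1 in each condition. The other members ranked lower, between 19 for *Trim46* at rest and 3059 for *Trim46* with anti-IgM.

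*Trim46* (Entrez gene 360213, chr3:89234169-89246358, minus strand, protein coding) was higher in resting *Ubqln1*-/- cells, and the gap between genotypes was narrow after anti-IgM. Resting WT libraries had 51, 57 and 34 counts (3.26, 2.22 and 1.69 CPM) and resting *Ubqln1*-/- libraries 171, 109 and 127 counts (8.10, 4.88 and 6.03 CPM). With anti-IgM, WT libraries had 1.32, 1.06 and 1.06 CPM and *Ubqln1*-/- libraries 1.33, 1.19 and 1.42 CPM. With LPS, WT libraries had 0.937, 0.839 and 0.609 CPM and *Ubqln1*-/- libraries 1.66, 1.39 and 1.70 CPM. The groups did not overlap at rest or with LPS, while with anti-IgM the lowest *Ubqln1*-/- library lay inside the WT range. The log2 difference of mean log2 CPM, *Ubqln1*-/- minus WT, was 1.39 at rest, 0.19 with anti-IgM and 0.94 with LPS. Stimulated libraries rested on 17 to 40 counts each, so counting error there is large. The 455 bases at the 5′ end of *Trim46* overlap *Krtcap2*, a subunit of the oligosaccharyltransferase. *Krtcap2* averaged 907 counts a library, and the library kit does not mark strand, so reads of the overlap cannot be assigned to either gene. *Krtcap2* itself differed between genotypes by -0.08 at rest on the log2 scale (SE 0.07, edgeR adjusted p = 1.00).

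*Setbp1* (Entrez gene 240427, chr18:78750378-79110444, minus strand, protein coding) was lower in *Ubqln1*-/- cells in every condition. Resting WT libraries had 36.0, 29.3 and 39.4 CPM, from 563 to 791 counts, and resting *Ubqln1*-/- libraries had 25.2, 22.9 and 20.1 CPM. With anti-IgM the values were 16.8, 16.5 and 19.8 CPM in WT and 12.6, 11.8 and 11.4 CPM in *Ubqln1*-/-. With LPS they were 34.1, 33.7 and 35.9 CPM in WT and 21.2, 21.0 and 18.8 CPM in *Ubqln1*-/-. All 3 pairs of groups were apart. The WT mean was 1.54 times the *Ubqln1*-/- mean at rest, 1.48 times with anti-IgM and 1.70 times with LPS.

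*Tns3* (Entrez gene 319939, chr11:8431652-8664758, minus strand, protein coding) had 43.0, 34.8 and 44.9 CPM in resting WT libraries and 22.2, 24.9 and 19.3 CPM in resting *Ubqln1*-/- libraries. With anti-IgM it had 28.1, 37.4 and 39.1 CPM in WT and 21.7, 28.5 and 23.7 CPM in *Ubqln1*-/-, so that the highest *Ubqln1*-/- library passed the lowest WT library. With LPS it had 18.8, 22.3 and 26.2 CPM in WT and 14.7, 15.6 and 13.2 CPM in *Ubqln1*-/-. The groups were apart at rest and with LPS. The WT mean was 1.85, 1.42 and 1.55 times the *Ubqln1*-/- mean at rest, with anti-IgM and with LPS. WT was higher in all 9 pairs of libraries matched by number alone, which are not independent.

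*Arhgap31* (Entrez gene 12549, chr16:38598343-38713035, minus strand, protein coding) had 25.4, 18.7 and 21.9 CPM in resting WT libraries and 10.9, 11.3 and 9.96 CPM in resting *Ubqln1*-/- libraries. With anti-IgM the WT libraries spread from 16.4 and 12.6 down to 9.27 CPM, and the *Ubqln1*-/- libraries had 9.09, 6.76 and 6.66 CPM. With LPS the values were 17.7, 17.3 and 19.1 CPM in WT and 11.3, 10.5 and 9.72 CPM in *Ubqln1*-/-. The groups were apart in each condition, by a margin of 9.27 against 9.09 CPM with anti-IgM. The WT mean was 2.05 times the *Ubqln1*-/- mean at rest, 1.70 times with anti-IgM and 1.72 times with LPS. RefSeq places 2 genes, *Gm36482* and *Gm15530*, over parts of *Arhgap31*, for which no counts were analysed here.

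*Car2* (Entrez gene 12349, chr3:14886269-14900770, plus strand, protein coding) had 30.8, 27.2 and 25.6 CPM in resting WT libraries and 16.5, 13.7 and 15.6 CPM in resting *Ubqln1*-/- libraries. With anti-IgM it had 10.2, 7.50 and 8.91 CPM in WT and 7.23, 5.54 and 7.53 CPM in *Ubqln1*-/-. With LPS it had 13.2, 10.3 and 9.92 CPM in WT and 8.91, 8.12 and 7.46 CPM in *Ubqln1*-/-. The genotypes were apart at rest and with LPS and overlapped with anti-IgM. The WT mean was 1.83 times the *Ubqln1*-/- mean at rest, 1.31 times with anti-IgM and 1.36 times with LPS.

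**Figure D1:**
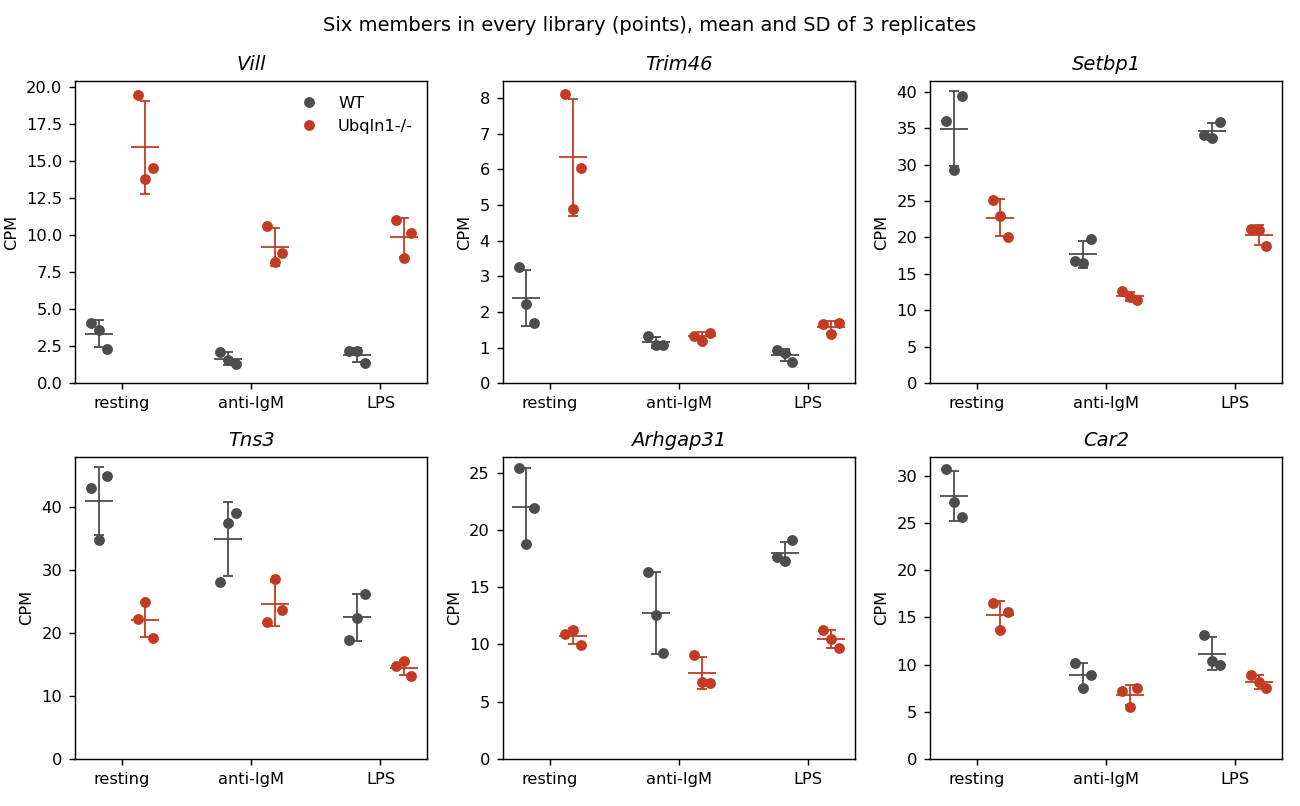
CPM of 6 members by condition (x axis) in WT (grey) and *Ubqln1*-/- (red) libraries, 1 point a library, with the mean and SD of 3 replicates. *Vill* and *Trim46* stand higher and *Setbp1*, *Tns3*, *Arhgap31* and *Car2* lower in *Ubqln1*-/- cells, and *Trim46*, *Tns3* and *Car2* overlap between genotypes with anti-IgM.

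GeneID:100504785 behaved unlike the other members, since it split the *Ubqln1*-/- libraries by replicate number. WT libraries had 5, 11 and 10 counts at rest, 14, 7 and 8 counts with anti-IgM and 32, 16 and 7 counts with LPS. Resting *Ubqln1*-/- libraries had 11653, 32897 and 598 counts in replicates 1, 2 and 3, or 552, 1472 and 28.4 CPM. With anti-IgM they had 9697, 27648 and 390 counts, or 323, 866 and 17.8 CPM. With LPS they had 8220, 33112 and 421 counts, or 489, 1244 and 23.1 CPM. Every *Ubqln1*-/- library was above every WT library, and in each condition replicate 2 was the highest and replicate 3 the lowest.

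The proportions between the *Ubqln1*-/- replicates of GeneID:100504785 were nearly the same in the 3 conditions. Replicate 2 had 2.67, 2.68 and 2.55 times the CPM of replicate 1 at rest, with anti-IgM and with LPS, and 51.9, 48.7 and 53.9 times the CPM of replicate 3. In the resting replicate 2 library the gene took 0.151% of all counts and ranked 32 among all genes, while in the resting replicate 3 library it took 0.00287% and ranked 6396. The SD of the 3 *Ubqln1*-/- libraries was 107% of their mean at rest, beside 6.37% to 25.8% for the other 6 members. The same-numbered ratio of *Ubqln1*-/- to WT ran from 43.9 to 3435, so a mean fold describes none of the libraries well. The gene model in the files is 2761 bases long, and since the locus was not placed, near-identical copies that could share its reads were not examined.

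**Figure D2:**
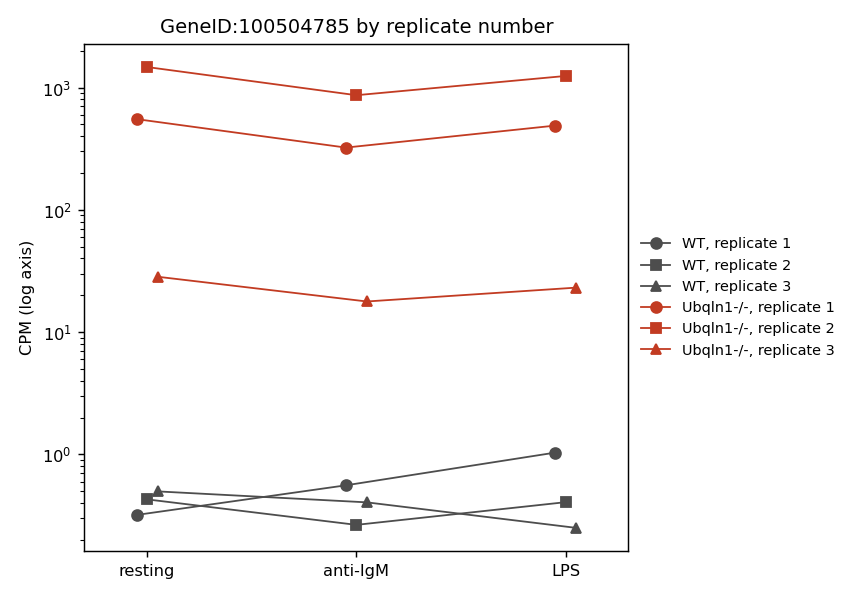
CPM of GeneID:100504785 on a log axis in the 3 conditions (x axis), with lines joining libraries of the same genotype and replicate number. *Ubqln1*-/- replicate 2 runs at 866 to 1472 CPM, replicate 1 at 323 to 552 CPM and replicate 3 at 17.8 to 28.4 CPM, while all WT libraries lie between 0.251 and 1.03 CPM.

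Set side by side, 3 members were higher and 4 were lower in *Ubqln1*-/- cells. The direction was the same in all 9 same-numbered pairs of libraries for each of the 7. These pairs match libraries by label, and the numbers were not taken to pair resting libraries across genotypes. Within a genotype a number links the 3 conditions, so the 9 pairs are not independent. The log2 difference ran over these pairs from 1.90 to 2.83 for *Vill* and from 0.02 to 1.78 for *Trim46*. It ran from -0.97 to -0.35 for *Setbp1*, from -1.22 to -0.36 for *Tns3*, from -1.21 to -0.47 for *Arhgap31* and from -0.99 to -0.24 for *Car2*. The groups were apart for all 7 members at rest, where 7.89% of all tested genes were apart, for 4 members with anti-IgM, where 11.4% were, and for 7 with LPS, where 7.01% were. Since the rule used this contrast, nothing is read from these counts or from the shared direction. *Vill*, *Setbp1*, *Arhgap31* and GeneID:100504785 were apart in all 3 conditions.

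**Figure D3:**
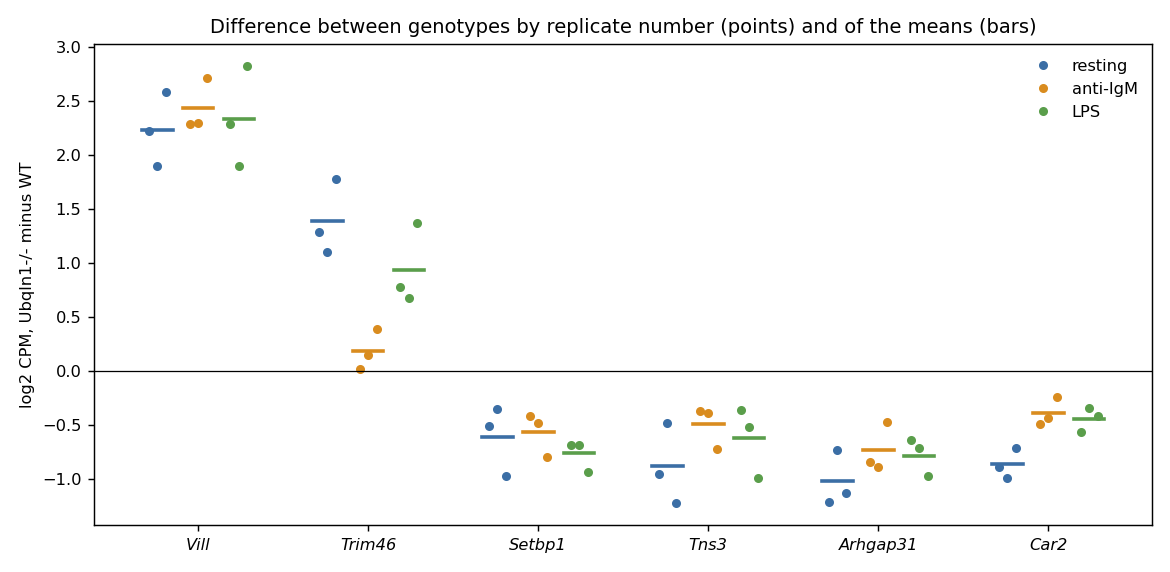
Log2 CPM difference, *Ubqln1*-/- minus WT, of 6 members (x axis) by condition, with points for same-numbered libraries and bars for the difference of the group means. *Vill* stays between 1.90 and 2.83, *Trim46* is at 0.19 on average with anti-IgM, and the other 4 members are below 0 in all pairs.

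Levels of different genes can be compared per length, in RPKM from the TMM-scaled library size. In resting WT cells *Car2* was highest at 15.6 ± 1.48 RPKM (SD, n = 3), then *Tns3* at 5.47 ± 0.720, *Setbp1* at 3.51 ± 0.516, *Arhgap31* at 2.85 ± 0.434, *Vill* at 1.15 ± 0.311, *Trim46* at 0.747 ± 0.249 and GeneID:100504785 at 0.151 ± 0.0326 RPKM. *Setbp1* and *Arhgap31*, and likewise *Vill* and *Trim46*, differed by less than the sum of their SDs. In resting *Ubqln1*-/- cells GeneID:100504785 was first at 248 ± 265 RPKM, a spread that takes in *Car2* at 8.53 ± 0.822. *Vill* came next at 5.47 ± 1.07 RPKM, ahead of *Tns3* at 2.96 ± 0.379. *Setbp1* at 2.28 ± 0.258, *Trim46* at 1.98 ± 0.510 and *Arhgap31* at 1.39 ± 0.0884 RPKM followed, each within the sum of SDs of the next.

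The contrast of stimulated with resting cells was not used to choose the members and was tested. Its libraries also stand in the genotype contrasts that chose them, so a change within 1 genotype is not free of the choice. In WT cells anti-IgM lowered 5 of the 7 members and raised 0, while 32.2% of all tested genes were lower and 32.4% higher in that comparison (edgeR quasi-likelihood test, adjusted p under 0.05). In *Ubqln1*-/- cells the same 5 genes, *Vill*, *Trim46*, *Setbp1*, *Arhgap31* and *Car2*, were lower, beside 32.4% of all genes lower and 32.9% higher. LPS lowered *Vill*, *Trim46*, *Tns3* and *Car2* in both genotypes and raised 0 members. No member was higher after either stimulus in either genotype at an unadjusted p under 0.05 in edgeR (0 in each comparison), and limma and DESeq2 called 0 higher. Of all genes 30.1% were lower and 31.2% higher with LPS in WT, and 30.2% were lower and 30.6% higher in *Ubqln1*-/-. Over the 7 members the median log2 change was -0.98 in WT and -0.79 in *Ubqln1*-/- with anti-IgM, and -0.78 and -0.61 with LPS, and over all tested genes it lay between -0.02 and -0.01.

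*Car2* fell with both stimuli. It fell with anti-IgM by 1.65 on the log2 scale in WT cells (SE 0.14, edgeR adjusted p = 3.56e-08) and by 1.18 in *Ubqln1*-/- cells (SE 0.14, edgeR adjusted p = 2.06e-06). With LPS it fell by 1.32 in WT (SE 0.14, edgeR adjusted p = 4.87e-07) and by 0.90 in *Ubqln1*-/- (SE 0.15, edgeR adjusted p = 5.10e-05). *Setbp1* was lower with anti-IgM and was not called with LPS. It fell with anti-IgM by 0.98 in WT (SE 0.11, edgeR adjusted p = 5.48e-07) and by 0.92 in *Ubqln1*-/- (SE 0.11, edgeR adjusted p = 1.44e-06). Its change with LPS was -0.01 in WT (SE 0.10, edgeR adjusted p = 0.933) and -0.16 in *Ubqln1*-/- (SE 0.11, edgeR adjusted p = 0.217). *Arhgap31* had the same outline, with -0.78 in WT (SE 0.16, edgeR adjusted p = 0.000524) and -0.51 in *Ubqln1*-/- (SE 0.17, edgeR adjusted p = 0.0157) with anti-IgM, and with -0.28 and -0.03 with LPS, neither past the threshold. By replicate number *Arhgap31* changed with anti-IgM in *Ubqln1*-/- cells by -0.27, -0.73 and -0.57. This call held with the replicate block (edgeR adjusted p = 0.00291) but not when some single libraries were left out of the main fit. It was lost without resting replicate 2 (edgeR adjusted p = 0.0541), without anti-IgM replicate 2 (edgeR adjusted p = 0.0733) and without anti-IgM replicate 3 (edgeR adjusted p = 0.0767).

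*Tns3* was the member that fell with LPS and not with anti-IgM. Its log2 change with LPS was -0.86 in WT (SE 0.15, edgeR adjusted p = 9.48e-05) and -0.61 in *Ubqln1*-/- (SE 0.16, edgeR adjusted p = 0.00314). With anti-IgM it was -0.23 in WT (SE 0.15, edgeR adjusted p = 0.187) and 0.16 in *Ubqln1*-/- (SE 0.15, edgeR adjusted p = 0.379). By replicate number, WT changed with anti-IgM by -0.61, 0.10 and -0.20, and *Ubqln1*-/- by -0.03, 0.19 and 0.30, so neither genotype moved in 1 direction.

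*Trim46* had the largest change of any member, in *Ubqln1*-/- cells. With anti-IgM it fell by 2.27 on the log2 scale in *Ubqln1*-/- (SE 0.23, edgeR adjusted p = 2.32e-07) and by 1.03 in WT (SE 0.25, edgeR adjusted p = 0.00190). With LPS it fell by 2.01 in *Ubqln1*-/- (SE 0.23, edgeR adjusted p = 1.65e-06) and by 1.55 in WT (SE 0.26, edgeR adjusted p = 6.00e-05). *Vill* fell with anti-IgM by 0.99 in WT (SE 0.26, edgeR adjusted p = 0.00284) and by 0.79 in *Ubqln1*-/- (SE 0.20, edgeR adjusted p = 0.00213). With LPS it fell by 0.78 in WT (SE 0.24, edgeR adjusted p = 0.0108) and by 0.69 in *Ubqln1*-/- (SE 0.20, edgeR adjusted p = 0.00654). These LPS calls of *Vill* were lost in WT without resting replicate 1 (edgeR adjusted p = 0.0526) or resting replicate 2 (edgeR adjusted p = 0.0502), and in *Ubqln1*-/- without resting replicate 1 (edgeR adjusted p = 0.0522). With the replicate block they held, in WT (edgeR adjusted p = 0.000873) and in *Ubqln1*-/- (edgeR adjusted p = 0.000166). *Vill* and *Trim46* were lower than at rest in all 12 same-numbered pairs each.

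GeneID:100504785 was not called after either stimulus in either genotype. In *Ubqln1*-/- cells its log2 change with anti-IgM was -0.76 with an SE of 1.14 (edgeR adjusted p = 0.576), an error set by the spread between replicates. Replicate by replicate it was steady, at -0.77, -0.77 and -0.67 with anti-IgM and -0.18, -0.24 and -0.30 with LPS. With the replicate number as a block the anti-IgM change was -0.75 (SE 0.22, edgeR adjusted p = 0.00587) and passed the threshold, and the LPS change was -0.23 (SE 0.22, edgeR adjusted p = 0.371) and did not. In WT cells the gene had too few counts for a precise change, with SEs of 4.37 and 3.84.

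**Figure D4:**
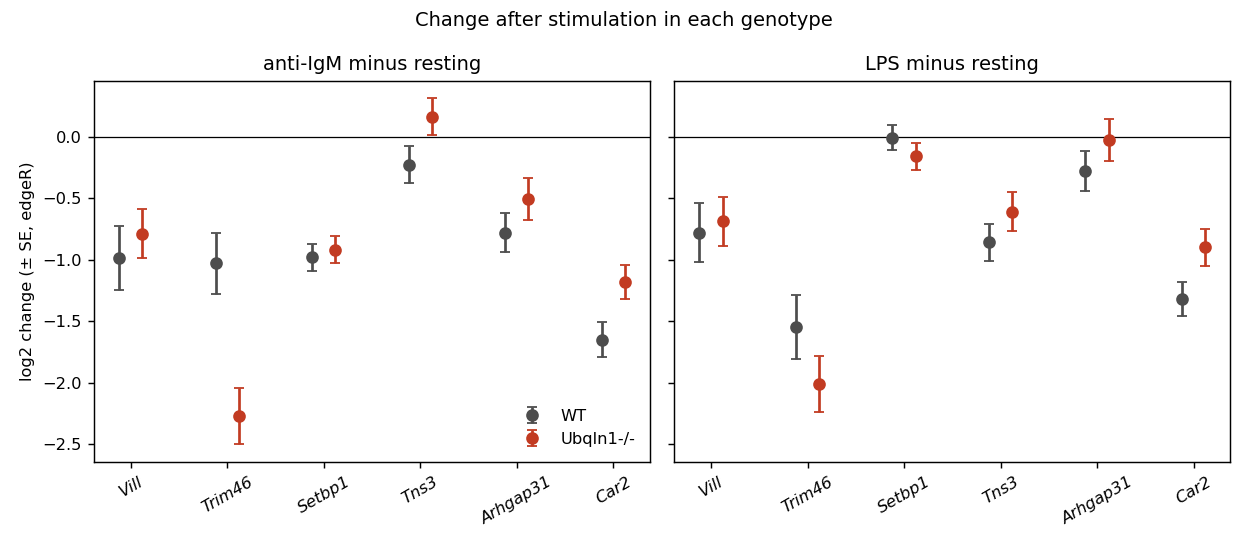
Log2 change (± SE, edgeR) of 6 members (x axis) with anti-IgM (left) and LPS (right) in WT (grey) and *Ubqln1*-/- (red) cells, 3 libraries a group. All points of *Vill*, *Trim46* and *Car2* lie below 0, *Setbp1* and *Arhgap31* lie near 0 with LPS, and *Tns3* lies near 0 with anti-IgM.

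The resting and the stimulated libraries stand in both the choice of the members and these changes. The change averaged over both genotypes, chosen after seeing the data, does not share the genotype contrast. By it 5 members were lower with anti-IgM and 4 with LPS, and none was higher. The share of all tested genes called in this averaged change was not computed, so nothing is read from these counts. It was -1.65 for *Trim46* (SE 0.17, edgeR adjusted p = 1.47e-07), -1.41 for *Car2* (SE 0.10, edgeR adjusted p = 1.39e-09), -0.95 for *Setbp1* (SE 0.08, edgeR adjusted p = 6.16e-09), -0.89 for *Vill* (SE 0.16, edgeR adjusted p = 9.44e-05) and -0.64 for *Arhgap31* (SE 0.12, edgeR adjusted p = 0.000110) with anti-IgM. The difference between genotypes in the change follows from the differences that chose the members and was given no test. It was -1.24 for *Trim46* with anti-IgM and -0.45 with LPS. For *Car2* it was 0.47 and 0.42, and for *Tns3* 0.39 and 0.26, in the order anti-IgM and LPS. *Setbp1* had 0.06 and -0.15, *Vill* 0.20 and 0.08, and *Arhgap31* 0.27 and 0.25.

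The tested genes nearest to the members did not pass the test between genotypes, and some lay far from them. The distance ran from 0 bases for *Krtcap2*, which overlaps *Trim46*, to 4230632 bases for *Armc1*, after *Car2*. The 6 members with a position stood on 5 chromosomes, none of them chromosome 13, which holds *Ubqln1*. Of the 24 tested genes nearest to them, 2 on each side, edgeR called 0 in any condition, where 0.0565% of all genes were called at rest, 0.0989% with anti-IgM and 0.0424% with LPS. At an unadjusted p under 0.05 there were 2 of them at rest, *Adnp2* and *Pkd1l1*, 0 with anti-IgM and 1 with LPS, *Ramp3*, named here after their values were seen. limma with voom and DESeq2 called 0 in each condition. The log2 differences of the 24 genes ran from -0.70 to 0.46 at rest, with a median of 0.01, from -0.08 to 0.60 with anti-IgM and from -0.55 to 0.75 with LPS.

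The nearest neighbours give the scale. *Itga9*, an integrin subunit 151726 bases before *Vill*, differed by -0.02 at rest (SE 0.39), and *Slc22a13b*, 148966 bases after it, by 0.46 (SE 0.39). *Muc1*, a membrane mucin 788 bases before *Trim46*, differed by -0.52 at rest (SE 0.30). *Tmem39a*, 6181 bases before *Arhgap31*, differed by 0.08 (SE 0.07), and *B4galt4*, a galactosyltransferase 29185 bases after it, by -0.21 (SE 0.47). *Car13*, another carbonic anhydrase 223267 bases before *Car2*, differed by 0.25 (SE 0.21). *Ythdf3*, a reader of methylated adenosine 1282378 bases after *Car2*, differed by 0.00 (SE 0.06). *Ramp3*, 1754174 bases before *Tns3*, and *Pkd1l1*, 160938 bases after it, differed at rest by 0.32 (SE 0.35) and -0.70 (SE 0.27). *Slc14a1*, a urea transporter 608259 bases before *Setbp1*, differed by 0.01 (SE 0.20). *Pard6g*, a polarity protein 936386 bases after *Setbp1*, differed by 0.43 (SE 0.33). The edgeR adjusted p of these genes was 1.00 at rest. The 4 tested genes nearest to *Ubqln1* differed at rest by between -0.08 and 0.00, and edgeR called 0 of them, with 0 at an unadjusted p under 0.05 and 0 by limma or DESeq2, in all 3 conditions.

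Related genes were read in 6 lists drawn up around the members' families and partners, 40 genes of which 29 were tested. Between genotypes edgeR called 0 of the 29 in each condition, with 1 (*Vil1*) at an unadjusted p under 0.05 at rest, 2 (*Scin* and *Mid1*) with anti-IgM and 0 with LPS, and limma and DESeq2 called 0. The median log2 difference was 0.05 at rest, -0.01 with anti-IgM and 0.02 with LPS. *Vil1*, the founding villin, was barely expressed, at 0.0779 to 1.85 CPM, and differed by 1.99 at rest (SE 0.68, edgeR adjusted p = 0.898). With anti-IgM 8 of the 29 were higher and 10 lower in WT, and 8 higher and 12 lower in *Ubqln1*-/-, and with LPS 10 were higher and 8 lower in each genotype. These shares ran from 27.6% to 41.4%, beside 30.1% to 32.9% of all tested genes for each direction, and nothing particular to the lists is read from them.

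Of the 7 villin and gelsolin relatives of *Vill*, anti-IgM lowered 4 and LPS lowered 3 in each genotype, and 0 were higher, beside 32.2% of all genes lower with anti-IgM and 30.1% with LPS in WT. With 7 genes these counts are a description. *Gsn*, gelsolin, fell by 1.76 with anti-IgM in WT (SE 0.16, edgeR adjusted p = 8.77e-08) and by 1.76 in *Ubqln1*-/- (SE 0.16, edgeR adjusted p = 8.20e-08), and *Capg*, a capping protein, fell by 0.74 with LPS in WT (SE 0.09, edgeR adjusted p = 3.92e-06). Of the 5 TRIM relatives of *Trim46* 2 were tested. *Trim36* fell by 1.00 and *Mid1*, a microtubule-binding ligase, rose by 0.79 with anti-IgM in WT (SE 0.19 and 0.22, edgeR adjusted p = 0.000167 and 0.00449). All 5 partners of *Setbp1* rose with both stimuli in both genotypes. Of all genes 32.4% rose with anti-IgM in WT and 32.9% in *Ubqln1*-/-, and with LPS 31.2% and 30.6%. *Setbp1* itself fell with anti-IgM, and a relation between it and the 5 partners was not tested. *Set* rose by 0.89 with anti-IgM in WT (SE 0.08, edgeR adjusted p = 8.01e-08), and *Ppp2r1b*, a scaffold subunit of PP2A, by 0.47 (SE 0.05, edgeR adjusted p = 1.12e-06). The smallest rise there was 0.16, for *Ppp2r1a* (SE 0.05, edgeR adjusted p = 0.0108).

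Among the other tensins *Tns1* and *Tns2* were tested. *Tns1* rose with LPS, where *Tns3* fell, by 2.23 in WT (SE 0.50, edgeR adjusted p = 0.00108) and by 2.03 in *Ubqln1*-/- (SE 0.47, edgeR adjusted p = 0.00141), and *Tns2* was not called. Of the 7 relatives and targets of *Arhgap31*, 5 fell with anti-IgM in WT and 6 in *Ubqln1*-/-, and with LPS 2 rose and 2 fell in each genotype. Of all genes 32.2% fell with anti-IgM in WT and 32.4% in *Ubqln1*-/-, and with LPS 31.2% rose and 30.1% fell in WT, so the LPS counts were near the share of all genes. *Arhgap30*, another GTPase-activating protein, fell with anti-IgM by 0.67 in WT (SE 0.09, edgeR adjusted p = 4.08e-06), and *Itsn1*, a scaffold with exchange activity for Cdc42, rose with LPS by 0.85 (SE 0.10, edgeR adjusted p = 1.94e-06). Of 12 carbonic anhydrases besides *Car2*, 6 were tested, and *Car6* had 0 counts in every library. *Car12*, a membrane-bound form, rose by 2.33 with LPS in WT (SE 0.42, edgeR adjusted p = 0.000160), and *Car13* rose by 0.83 with anti-IgM in WT (SE 0.20, edgeR adjusted p = 0.00151). In WT 2 carbonic anhydrases rose and 0 fell with anti-IgM, where 32.4% of all genes rose and 32.2% fell. With LPS 1 rose and 2 fell, where 31.2% of all genes rose and 30.1% fell. *Car5b*, *Car9* and *Car12* were near the floor, at most 1.37, 0.663 and 1.26 CPM. Nothing particular to this list is read from the counts.

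The genes most like each member over the 18 libraries were found by Pearson's r of log2 CPM, the 3 highest for each, as a description, since the libraries share genotype and stimulus. For *Vill* they were *Cox6b2* (r = 0.946), *Pde7b* (r = 0.910) and *Kptn* (r = 0.889). *Cox6b2*, a cytochrome c oxidase subunit, went from 0.671 ± 0.250 CPM in resting WT to 2.52 ± 1.23 CPM in resting *Ubqln1*-/- (SD, n = 3), and *Pde7b*, a cAMP phosphodiesterase, from 1.37 ± 0.252 to 2.37 ± 0.407 CPM. For *Trim46* they were *Mgst2*, *Bcl2l2* and *4930451G09Rik* (r = 0.917, 0.917 and 0.909). *Bcl2l2*, a survival protein of the Bcl-2 family, had 21.7 ± 0.761 CPM in resting WT and 15.1 ± 0.244 CPM in WT with anti-IgM. For *Setbp1* they were *Sema5a* (r = 0.954), *Scn8a* (r = 0.880) and *Kctd14* (r = 0.875), and *Sema5a*, a semaphorin, had 10.7 ± 1.77 CPM in resting WT against 6.97 ± 0.990 CPM in resting *Ubqln1*-/-.

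Among the members themselves r was 0.87 between *Setbp1* and *Arhgap31*, 0.73 between *Car2* and each of those, and 0.87 between *Vill* and GeneID:100504785. *Tns3* had 0.22 to 0.45 with the other 3 genes that were lower in *Ubqln1*-/-. *Trim46* had 0.69 with *Vill* and 0.42 with GeneID:100504785, and 0.51 with *Car2*, which differed in the opposite direction. The genotype difference in these libraries chose the members, so likeness between those that moved the same way is partly built in. Nothing is read from it. For *Tns3* the most like genes were *Bicd1*, *Slc41a2* and *Topors* (r = 0.929, 0.860 and 0.832). For *Arhgap31* the first was *Setbp1* (r = 0.866), another member, then *Gm12992* and *Ccdc88a* (r = 0.823 and 0.816). For *Car2* they were *Neu1*, a lysosomal sialidase (r = 0.943), GeneID:100503680 (r = 0.938) and *Mfsd6* (r = 0.932). For GeneID:100504785 they were *Lmbr1* (chr5:29229802-29378421, r = 0.934), *Zcwpw1* (chr5:137787157-137822621, r = 0.903) and *Vill* (r = 0.872). *Lmbr1* had 1.14 to 1.48 CPM in WT libraries. In *Ubqln1*-/- replicates 1, 2 and 3 it had 2.61, 3.00 and 1.52 CPM at rest, 2.33, 2.51 and 2.37 CPM with anti-IgM and 2.38, 2.59 and 2.36 CPM with LPS. Replicate 3 was thus well below the others at rest, while after stimulation the 3 replicates lay close together. *Zcwpw1*, a reader of methylated histone H3, had 21.6, 22.5 and 14.9 CPM in resting *Ubqln1*-/- replicates 1, 2 and 3, 19.4, 25.9 and 17.9 CPM with anti-IgM and 18.5, 24.2 and 14.5 CPM with LPS. *Zcwpw1* was picked for its likeness to GeneID:100504785 over these libraries, so a shared order is partly built in. Its replicate 2 was highest and its replicate 3 lowest in each condition, the order of GeneID:100504785, over a far narrower range. Both genes had a position in 17 of the 21 likenesses, and 1 of these 17, *Mgst2* with *Trim46*, joined genes of the same chromosome.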

How the data were processed

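The 7 members and the gene lists were chosen with earlier results of these data known. Per the submitters' processing notes the tools were GSNAP, limma and R 3.2.2 with the build GRCm38. The authors aligned single-end reads of 50 bases and deposited, for each gene and library, a raw count of reads over its exons and an RPKM. The counting program and annotation release are not given in the sources used here, and the TruSeq v2 kit does not mark strand. The deposited RPKM was not used for values, and the RPKM printed divides each count by its gene's deposited width and by the library total after TMM scaling. Entrez numbers were matched to RefSeq, which named 89.1% of 28096 genes and gave the positions.

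Counts were analysed in R 4.3.3 with edgeR 4.0.16 (TMM, expression filter, quasi-likelihood test over all 18 libraries with 1 term a group, Benjamini-Hochberg adjustment over 14161 genes). The SE is that of the log2 fold change. Log2 CPM used a prior count of 2. Total counts a library ran from 15368941 to 41072854, with a median of 23257531. No pair of libraries held identical values. Each stimulated group was compared with resting cells of its genotype. Alternatives were other size factors, other filters, limma 3.58.1 with voom, DESeq2 1.42.0, only the compared groups, a replicate block and leaving out each library. The fit was tested on simulated counts first.

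Replicates 2 and 3 are numbered in the labels and the remaining library of a group was called 1. Whether the numbers pair libraries was checked by correlating deviations from the group means over genes. Between resting and stimulated libraries of a genotype all 12 correlations lay between 0.228 and 0.516, so the numbers pair these. The main fit has no replicate term and does not use this pairing, which only the alternative with the replicate block does. For each member the SE of every stimulation change was smaller with the block. For *Vill* in *Ubqln1*-/- with anti-IgM it was 0.13, against 0.20 in the main fit. Between genotypes all 9 were above 0, from 0.083 at rest to 0.388, and 8 passed the limit of 0.1. Whether the numbers pair the genotypes was left undecided, and they were not taken to pair resting libraries across genotypes. The labels call the replicates biological.

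Named genes were the members, *Ubqln1*, the 2 tested genes on each side of a member that passed the test and the nearest on each side, genes of 6 lists related to the members (up to 2 a list by the smallest p), the 3 genes most like each member, and genes leading 13 cell type marker lists. Other genes are named where a count was small. A marker of the B cell list is not reported here.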

Additional observations from a re-analysis of the deposited data

How the results depend on the processing

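The calls moved little over the alternatives run. The number of members lower with anti-IgM was 5 in WT under all of them and 4 to 6 in *Ubqln1*-/-, and with LPS it was 3 or 4 in each genotype. The count of 6 came from the replicate block, which added GeneID:100504785 with a log2 change of -0.75, and the block changed no other call of a member. With the block the log2 difference of *Ubqln1* was -1.27 at rest, and all alternatives left it between -1.35 and -1.24. The tested genes nearest to the members and the related genes had 0 calls between genotypes under every alternative. The related genes lower with LPS in WT numbered 8, and leaving out 1 library at a time gave 5 to 8, with 5 without WT LPS replicate 2. The genotype difference of each member moved by less than 1 SD between replicates under other size factors, a prior count of 0.5, the fitted fold change, the replicate block and without each library. With at least 10 counts in every library GeneID:100504785 was not tested. Depth limits *Trim46* after stimulation, at 17 to 40 counts a library, and GeneID:100504785 in WT, at 5 to 32.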
